A study of Caenorhabditis elegans with 16 samples.

Results

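Chromatin accessibility at the proteasome subunit genes of Caenorhabditis elegans was followed in L1 larvae. These were taken to be the 33 genes of the Ensembl WBcel235 annotation whose names start with pas-, pbs-, rpt- or rpn-. Genes under other names were not counted among them. Accessible regions (peaks) were assigned to a gene when the peak midpoint lay within 1000 bp of an annotated transcript 5′ end of that gene. By this rule 58 of the 29131 peaks belonged to 32 of the 33 genes, and each peak belonged to 1 of these genes only. Accessibility was measured by ATAC-seq, in which the Tn5 transposase inserts adapters into open DNA, on nuclei of whole animals. There were 4 strains with 4 replicates each, all grown on E. coli OP50 plates with 1 mM auxin at 23 °C. The rpoa-2::degron strain carries the auxin-dependent degron on RPOA-2, a subunit of RNA polymerase I, and was collected after 18 h as the RPOA-2 undepleted group. The rpoa-2::degron; eft-3p::tir-1 strain also expresses TIR1 throughout the body, which sends the tagged protein to degradation, and was collected after 24 h as the RPOA-2 depleted group. The rrb-1::degron strain (18 h) and the rrb-1::degron; eft-3p::tir-1 strain (24 h) are the GRWD-1 undepleted and depleted groups, since the label RRB-1 names the large ribosome subunit assembly factor that the study and the annotation call GRWD-1. Larvae with TIR1 grow more slowly, which the methods give as the reason for the later collection. Loss of the protein, the TIR1 transgene, the strain and the collection time therefore cannot be told apart in any comparison of depleted with undepleted larvae. The larvae of a strain were grown together and then divided into the 4 replicates, so the spread between replicates, and every p-value here, leaves out differences between growths.

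The proteasome is the protease that degrades ubiquitin-tagged proteins in the cytoplasm and nucleus. Its core is a barrel of stacked rings, with outer alpha rings (pas genes) that gate the entry and inner beta rings (pbs genes) that hold the proteolytic sites. The regulatory particle that caps the barrel has a base, with a ring of ATPases (rpt genes) that unfold and thread substrates, and a lid (most rpn genes) that removes ubiquitin. In C. elegans the transcription factor SKN-1 raises proteasome gene expression when proteasome function is impaired. The same machinery, with a TIR1-containing ubiquitin ligase, removes the degron-tagged proteins in the depleted larvae. The roles given below for single subunits are those established for the yeast and human counterparts.

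Reads in peaks numbered 2337415 in the shallowest library and 13010378 in the deepest, with a median of 5785823. The 58 proteasome peaks together held 5148 to 26640 reads per library, and a single proteasome peak held from 7 to 1773 reads. Only 17 of the 58 peaks had at least 100 reads in every library, and 14 had under 20 reads in some library, so the precision differed widely between them. Within a group of 4 libraries the coefficient of variation of a proteasome peak was 12.02% at the median (range 1.58% to 44.2%), against 14.2% over all peaks. As a check of the whole animal label, 8 of 10 tissue marker genes had a peak by the same rule, among them muscle unc-54 and myo-3, neuronal unc-119 and rgef-1, epidermal dpy-7 and elt-3, and pharyngeal myo-2 and pha-4. The intestinal markers elt-2 and ges-1 had no peak within the window.

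Proteasome genes had a peak more often than protein-coding genes at large. The share was 97.0% (32 of 33 genes), against 49.5% (9888 of 19985) of all protein-coding genes. Of the proteasome genes, 15 had 1 peak, 11 had 2, 3 had 3 (pas-6, rpn-11 and rpt-4) and 3 had 4 (pas-4, rpn-5 and rpn-6.1). Where a gene had several peaks, they are numbered here along the chromosome. The gene without a peak was rpn-10, which encodes a ubiquitin receptor of the proteasome and lies on chromosome I. Its nearest peak, from 10730729 to 10731697, has its midpoint 1211 bp from the 5′ end, inside the gene, and held 43.2 ± 4.17 CPM (a depth-scaled level, here the read count relative to a library's reads in peaks, scaled by the TMM method of edgeR; SD, n = 16). No difference between depleted and undepleted larvae passed edgeR's quasi-likelihood test at that peak (log2 fold change -0.06 ± 0.11 SE, adjusted p = 0.895, for RPOA-2 and 0.01 ± 0.10, adjusted p = 0.99, for GRWD-1).

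The proteasome peaks lay mostly inside their genes. The midpoint was downstream of the gene's nearest annotated 5′ end for 36 of 58 peaks (62.1%), with a median distance of 328 bp downstream. Where a gene has several 5′ ends, a peak upstream of the nearest one can still lie inside the gene. Over all 15708 pairs of a peak and a protein-coding gene within the window, 50.0% of midpoints lay downstream, with a median of 0.25 bp. A coding exon of the own gene was overlapped by 38 of the 58 peaks (65.5%), against 57.6% of all pairs, and 14 (24.1%) covered the own 5′ end, against 29.8%. The proteasome peaks were also longer, with a median of 502 bp (range 150 to 1743 bp) against 374 bp over all pairs. 12 of the 58 reached 1000 bp or more (20.7%), against 9.73% of all pairs. Read density did not follow this difference, since its median was 53.2 CPM per kb of peak for the proteasome peaks and 53.1 CPM per kb for all 13357 peaks near protein-coding genes. These shares and medians are descriptions without a test.

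**Figure D1:**
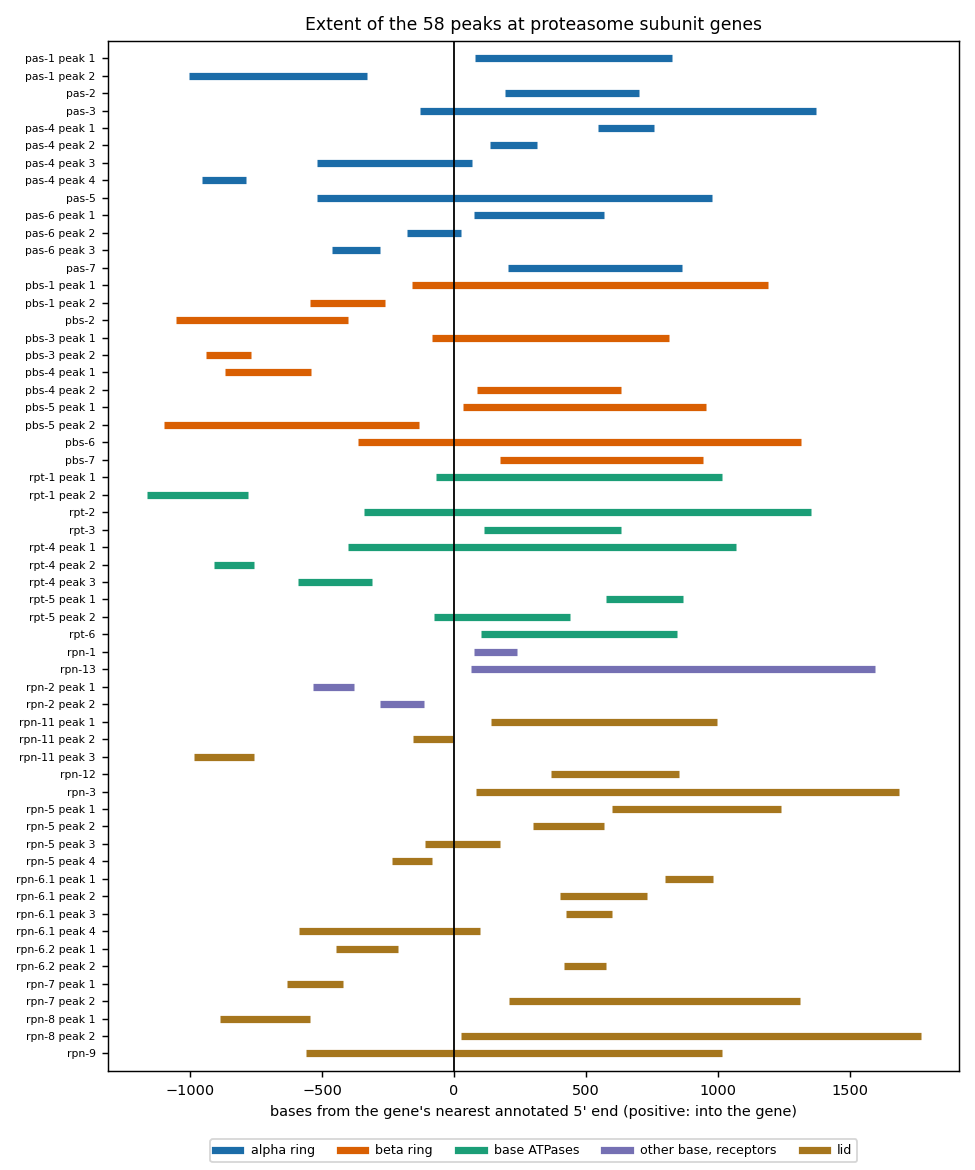
Each bar is 1 of the 58 peaks, drawn from its first to its last base along the gene (x axis, bases from the gene's nearest annotated 5′ end, positive downstream of it) and coloured by subunit group. Bars at negative values can lie inside a gene with several 5′ ends, as rpn-6.2 peak 1 does. 14 bars cross the 5′ end at 0, and long bars such as rpn-8 peak 2 (1743 bp), rpt-2 (1698 bp) and pbs-6 (1680 bp) reach over much of the gene.

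Many of these regions are shared with a neighbouring gene. For 34 of the 58 peaks, the 5′ end of another protein-coding gene also lay within 1000 bp, and for 17 the nearest 5′ end belonged to another gene. The upstream neighbour lay on the opposite strand for 23 of the 33 genes and on the same strand for 10. The same shares were not counted over all protein-coding genes, so whether these numbers are particular to proteasome genes was not tested. Examples are the pbs-2 peak, whose nearest 5′ end is that of eif-6, the gene of a factor of large ribosome subunit maturation, and rpn-5 peak 4, whose nearest 5′ end is that of scc-1, a cohesin gene. Neighbours from RNA polymerase I itself also occurred: pas-1 peak 2 had rpoa-12 as its nearest gene and rpt-4 peak 3 overlapped an exon of rpoa-49. Accessibility in such a peak cannot be ascribed to either neighbour alone. The genes were on chromosomes I (10), II (7), III (8), IV (3) and V (5), with 0 on X.

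Read density varied less between the proteasome peaks than the read level of whole peaks. Mean density over the 16 libraries ran from 26.9 to 80.5 CPM per kb, a ratio of 2.99, while the mean read level of whole peaks ran from 4.04 to 140.4 CPM, a ratio of 34.8. Of the 57 steps between neighbours in the order of density, only 1 exceeded the larger of both SDs, that from rpn-6.2 peak 2 down to rpn-11 peak 2. Sorting 58 values makes the steps small, and the ends of the order (80.5 ± 8.56 and 26.9 ± 5.72 CPM per kb) were further apart than their SDs.

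**Figure D2:**
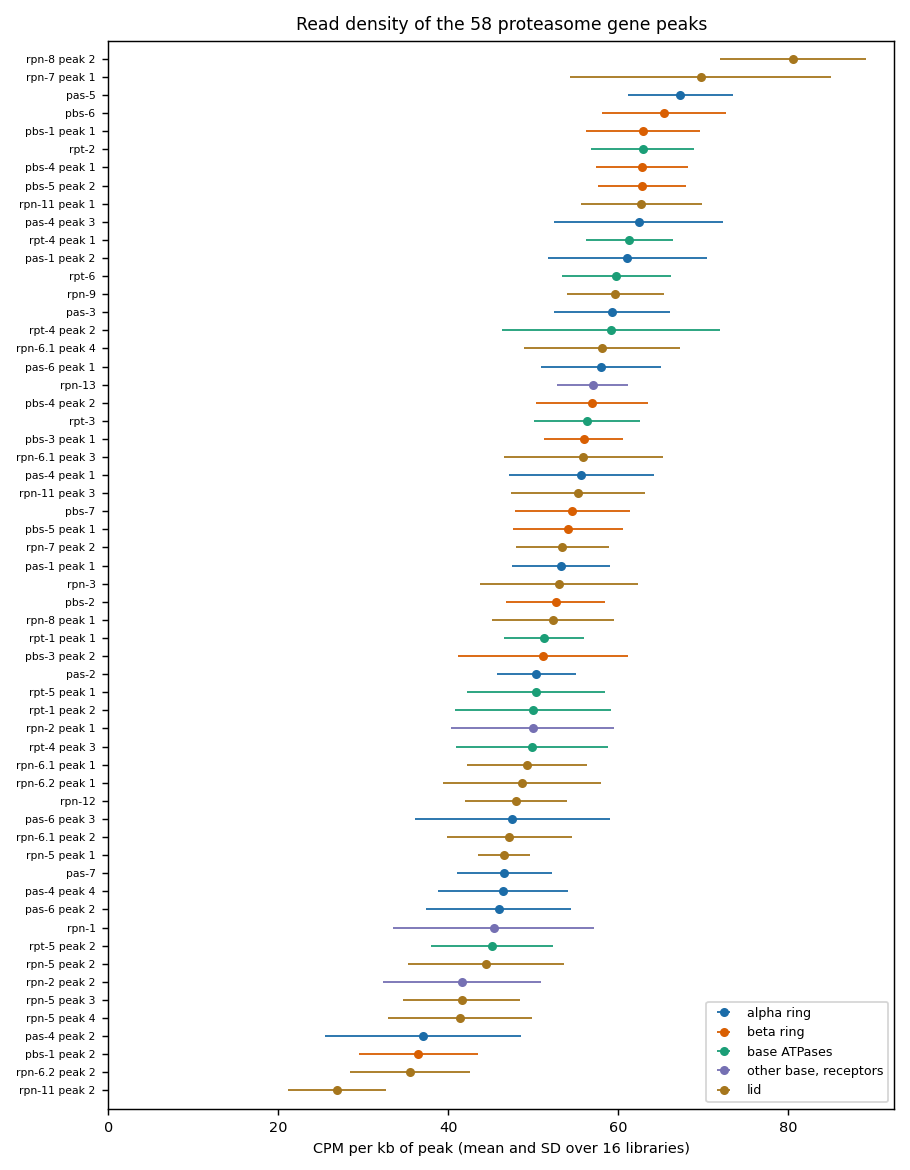
Read density of the 58 peaks in order (x axis, CPM per kb of peak), with points for the mean and bars for the SD over all 16 libraries, coloured by subunit group. The order runs from rpn-8 peak 2 at 80.5 CPM per kb to rpn-11 peak 2 at 26.9, and the subunit groups are mixed along it.

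The densest of all 58, rpn-8 peak 2, lies over coding exons of rpn-8, the structural partner of the lid deubiquitinase, and over an exon of R12E2.17, on chromosome I from 4175347 to 4177089, and its density was 80.5 ± 8.56 CPM per kb (SD, n = 16). It held 120.0, 139.3, 137.0 and 159.4 CPM in RPOA-2 undepleted larvae and 124.9, 145.5, 154.5 and 136.8 CPM in RPOA-2 depleted larvae. In GRWD-1 undepleted larvae it held 113.7, 142.0, 152.4 and 139.7 CPM, and in depleted larvae 127.7, 171.5, 147.2 and 134.4 CPM. All 4 groups overlapped, and the 1st replicate was the lowest library in each of them. The sparsest of all 58, rpn-11 peak 2, is 150 bp long on chromosome II from 4044335 to 4044484, with its midpoint 79.5 bp upstream of the nearest annotated 5′ end of rpn-11, which encodes that deubiquitinase. It still lies inside the gene, over a 5′ UTR exon, since the annotated gene begins at 4044546. Its density of 26.9 ± 5.72 CPM per kb rested on only 7 to 63 reads per library.

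Among the alpha ring genes, the densest peak was at pas-5 and the sparsest was pas-4 peak 2. The pas-5 peak extends from 10565831 to 10567328 on chromosome I, over the 5′ end, coding exons and both UTRs of the gene, at 67.3 ± 6.14 CPM per kb (SD, n = 16). It held 89.3, 90.8, 108.0 and 119.8 CPM in RPOA-2 undepleted and 95.03, 106.3, 114.0 and 97.0 CPM in RPOA-2 depleted larvae. The GRWD-1 libraries held 98.9, 103.2, 110.3 and 103.0 CPM undepleted and 89.4, 97.1, 101.4 and 89.8 CPM depleted, so that only the highest depleted library came above the lowest undepleted one. By contrast pas-4 peak 2 (chromosome I, 8728172 to 8728349) lies within the gene and overlaps no exon of it, at 37.1 ± 11.6 CPM per kb. It held 5.53, 4.23, 6.12 and 11.03 CPM in RPOA-2 undepleted and 3.12, 5.75, 4.18 and 8.05 CPM in RPOA-2 depleted larvae. In GRWD-1 larvae the values were 6.63, 8.07, 8.19 and 9.10 CPM undepleted and 5.73, 6.08, 5.48 and 8.26 CPM depleted. The groups overlapped in both pairs, and the 4th replicate was the highest library in every group.

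In the ATPase ring the density was highest at rpt-2 and lowest at rpt-5 peak 2. The rpt-2 peak (chromosome V, 6016314 to 6018011) covers the 5′ end of rpt-2 and exons of F29G9.10 and of the divergent gene aps-1, at 62.9 ± 6.101 CPM per kb (SD, n = 16). Its RPOA-2 libraries held 94.5, 100.9, 116.8 and 111.8 CPM undepleted and 94.6, 100.2, 106.1 and 98.7 CPM depleted. Its GRWD-1 libraries held 103.0, 116.0, 113.1 and 135.1 CPM undepleted and 97.9, 109.9, 106.1 and 103.5 CPM depleted. The groups overlapped, although the highest GRWD-1 depleted library stayed below 3 of the 4 undepleted ones. The peak rpt-5 peak 2 (chromosome I, 5743132 to 5743648) covers the 5′ end of its gene at 45.2 ± 7.21 CPM per kb. It held 22.7, 26.0, 22.3 and 28.1 CPM in RPOA-2 undepleted, 30.8, 26.6, 19.2 and 27.7 CPM in RPOA-2 depleted, 20.6, 22.9, 25.3 and 19.2 CPM in GRWD-1 undepleted and 22.5, 20.0, 17.9 and 21.6 CPM in GRWD-1 depleted larvae. The RPOA-2 depleted libraries spanned the widest range and overlapped all other groups.

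The beta ring had its densest peak at pbs-6, described with the RPOA-2 comparison, and its sparsest at pbs-1 peak 2 (chromosome IV, 1710008 to 1710290). The latter lies upstream of pbs-1 and over an exon of the divergent gene K08D12.3, at 36.5 ± 6.96 CPM per kb (SD, n = 16). It held 6.45, 10.7, 8.25 and 14.5 CPM in RPOA-2 undepleted, 7.41, 10.6, 10.9 and 8.68 CPM in RPOA-2 depleted, 9.25, 11.5, 12.02 and 12.02 CPM in GRWD-1 undepleted and 10.04, 11.01, 10.5 and 11.5 CPM in GRWD-1 depleted larvae. All groups overlapped.

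The first comparison asked whether loss of RPOA-2, and with it of RNA polymerase I function, went with a change of accessibility at these genes. No change of accessibility at a proteasome gene passed the test: 0 of 58 peaks reached an adjusted p of 0.05 in edgeR (quasi-likelihood test, Benjamini-Hochberg adjustment over all peaks), where 1.69% of all 29131 peaks passed. The DESeq2 Wald test with the same design also called 0 of 58. At an unadjusted p under 0.05 there were 3 peaks, 1 higher and 2 lower, or 5.17% of the 58 against 12.3% of all peaks. The smallest adjusted p was 0.177. Log2 fold changes ran from -0.44 to 0.35 with a median of -0.04, against a median of 0.00 over all peaks, and 34 of 58 were below 0. Standard errors, which were computed back from the p-values, had a median of 0.13. The 95% interval of 52 of the 58 peaks lay within a 1.5-fold change in either direction. The other 6 (pas-4 peak 2, pas-6 peak 3, rpn-2 peak 2, rpn-5 peak 2, rpn-6.2 peak 1 and rpn-11 peak 2) were peaks of 150 to 270 bp with 7 to 22 reads in their shallowest library, and their intervals reached past 1.5-fold on 1 side.

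The peak with the smallest p on the lower side was pbs-5 peak 1, inside the gene of the beta subunit that carries the chymotrypsin-like activity (chromosome I, 14719520 to 14720442). It held 52.1, 59.1, 51.6 and 55.9 CPM in RPOA-2 undepleted larvae and 48.196, 41.7, 48.0 and 43.0 CPM in RPOA-2 depleted larvae. All 4 depleted libraries were below all 4 undepleted ones, but the difference (log2 fold change -0.27 ± 0.10 SE) did not pass the adjustment over all peaks (edgeR, unadjusted p = 0.00813, adjusted p = 0.177). Without RPOA-2 depleted replicate 2 the value was -0.16 (adjusted p = 0.852). The next was rpn-5 peak 2, over coding exons of the lid subunit gene rpn-5 (chromosome II, 4697724 to 4697993), with 12.4, 13.9, 14.4 and 16.0 CPM in undepleted and 11.5, 9.67, 6.68 and 11.9 CPM in depleted larvae. Here too the depleted libraries were below all undepleted ones, and the log2 fold change was -0.44 ± 0.18 SE (edgeR, adjusted p = 0.266) on 16 to 149 reads per library. Without RPOA-2 depleted replicate 2 it was -0.22 (adjusted p = 0.887), and with all peaks as control peaks -0.25. These were the 2 of 58 proteasome peaks with all depleted below all undepleted libraries (3.45%), where 2.49% of all peaks had this order. The opposite order was found in 0 of 58 proteasome peaks and in 2.13% of all peaks.

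On the higher side, rpn-6.2 peak 1 had the smallest p. It lies on chromosome III from 9001092 to 9001327 over coding exons of rpn-6.2, a second gene for the lid subunit that rpn-6.1 also encodes. It held 10.9, 11.2, 13.6 and 8.37 CPM in RPOA-2 undepleted larvae and 14.4, 12.3, 16.3 and 14.2 CPM in depleted larvae, overlapping by 1 library of each group. The log2 fold change was 0.35 ± 0.17 SE (edgeR, unadjusted p = 0.0435, adjusted p = 0.384). The second was the peak at pbs-6, a beta subunit without catalytic activity, which extends over the 5′ end, coding exons and 3′ UTR of the gene and exons of its neighbours cids-1 and C02F5.12 (chromosome III, 8242776 to 8244455) at 65.4 ± 7.32 CPM per kb (SD, n = 16). It held 94.8, 98.4, 107.7 and 113.7 CPM undepleted and 120.0, 138.7, 112.8 and 101.0 CPM depleted. Only 2 depleted libraries exceeded all undepleted ones, and the log2 fold change was 0.16 ± 0.08 SE (edgeR, adjusted p = 0.409).

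**Figure D3:**
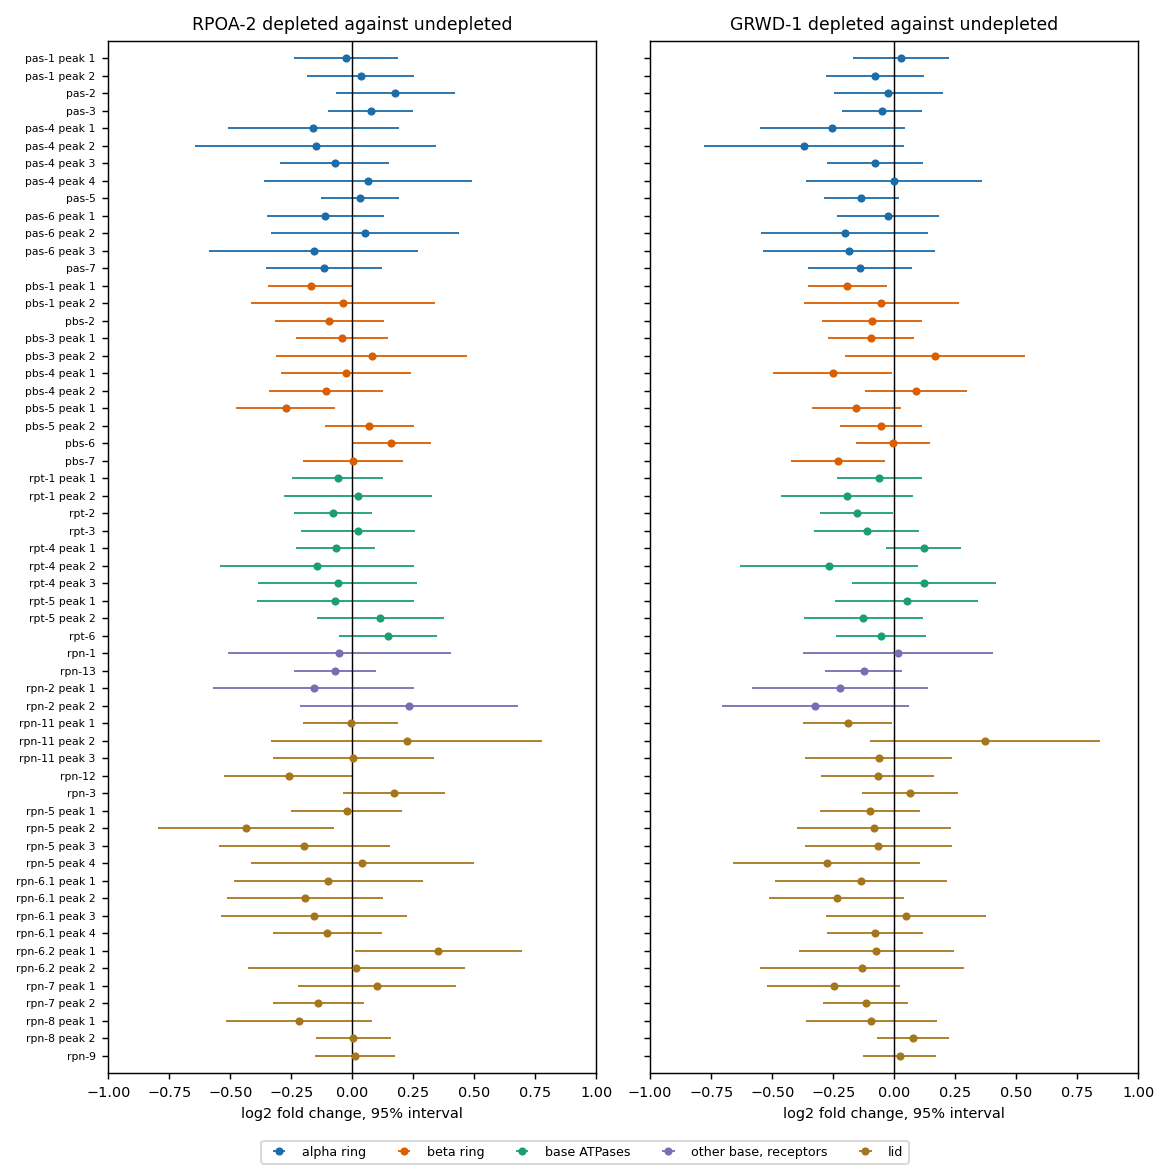
Log2 fold change of each of the 58 peaks with its 95% interval (x axis) in RPOA-2 (left) and GRWD-1 (right) depleted against undepleted larvae, coloured by subunit group. Most points lie between -0.25 and 0.25, none passed the adjusted test, and 34 points on the left and 46 on the right are below 0.

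The second comparison asked the same of GRWD-1, whose loss disturbs assembly of the large ribosomal subunit. Again 0 of 58 peaks passed the adjusted test in edgeR, where 1.38% of all peaks passed, and 0 of 58 passed in DESeq2. The smallest adjusted p was 0.304. At an unadjusted p under 0.05 there were 5 peaks (8.62%, against 10.8% of all peaks), and all 5 were lower in depleted larvae. They were pbs-1 peak 1, pbs-4 peak 1, rpn-11 peak 1 and the peaks of pbs-7 and rpt-2. Most peaks leaned to lower values by small amounts. Of the 58, 46 (79.3%) had a log2 fold change below 0, against 48.5% of all peaks and 48.6% of peaks near protein-coding genes, and the median was -0.09 against 0.01 over all peaks. These shares have no test of their own, since peaks of 1 library share its depth and scaling, and the median moved to -0.02 when the 8 GRWD-1 libraries were fitted alone. Fold changes ran from -0.37 to 0.37, and the 95% interval of 53 of the 58 lay within a 1.5-fold change in either direction. In 0 of the 58 peaks were all depleted libraries apart from all undepleted ones, whether below (2.12% of all peaks) or above (1.76%).

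The smallest p belonged to pbs-7, a beta subunit without catalytic activity, at a peak over its coding exons and 3′ UTR (chromosome I, 8695357 to 8696126), for which the nearest 5′ end is that of K07A12.5. It held 36.6, 45.8, 45.9 and 52.0 CPM in GRWD-1 undepleted larvae and 34.1, 42.0, 39.3 and 35.6 CPM in GRWD-1 depleted larvae. The highest 3 undepleted libraries were above all depleted ones, and the log2 fold change was -0.23 ± 0.10 SE (edgeR, unadjusted p = 0.0183, adjusted p = 0.304). With the 8 GRWD-1 libraries fitted alone it was -0.06. The same peak held 41.8, 43.8, 37.5 and 45.6 CPM in RPOA-2 undepleted and 36.1, 47.2, 48.0 and 41.3 CPM in RPOA-2 depleted larvae, which overlapped throughout (log2 fold change 0.00 ± 0.11 SE). The second was pbs-1 peak 1, over the 5′ end of the gene of the caspase-like beta subunit (chromosome IV, 1708553 to 1709906), with 79.7, 87.2, 102.1 and 98.4 CPM undepleted and 76.3, 90.1, 74.9 and 79.1 CPM depleted. The groups overlapped, with a log2 fold change of -0.19 ± 0.08 SE (edgeR, unadjusted p = 0.0214, adjusted p = 0.322), and it was -0.12 without GRWD-1 depleted replicate 3 and -0.08 with 3 factors.

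On the higher side the smallest unadjusted p-values were 0.12 and 0.121. The first belonged to rpn-11 peak 2, with 2.49, 3.54, 4.55 and 4.22 CPM in GRWD-1 undepleted and 4.68, 4.68, 4.23 and 5.39 CPM in GRWD-1 depleted larvae. In RPOA-2 larvae it held 3.69, 3.17, 4.52 and 2.66 CPM undepleted and 3.90, 4.05, 5.43 and 3.39 CPM depleted. The groups overlapped in both pairs, and the log2 fold changes of 0.37 ± 0.24 SE in GRWD-1 and 0.22 ± 0.28 SE in RPOA-2 larvae were both within 2 standard errors of 0. The second was rpt-4 peak 1, over the 5′ end of the ATPase gene rpt-4 and an exon of nfyc-1 (chromosome II, 42594 to 44064). It held 84.2, 97.5, 85.0 and 89.0 CPM undepleted and 92.9, 105.1, 94.9 and 96.7 CPM depleted, so that 3 undepleted libraries were below all depleted ones (log2 fold change 0.12 ± 0.08 SE). In RPOA-2 larvae it held 81.6, 93.1, 91.0 and 87.9 CPM undepleted and 83.9, 99.3, 84.8 and 76.2 CPM depleted, with overlap (log2 fold change -0.07 ± 0.08 SE).

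**Figure D4:**
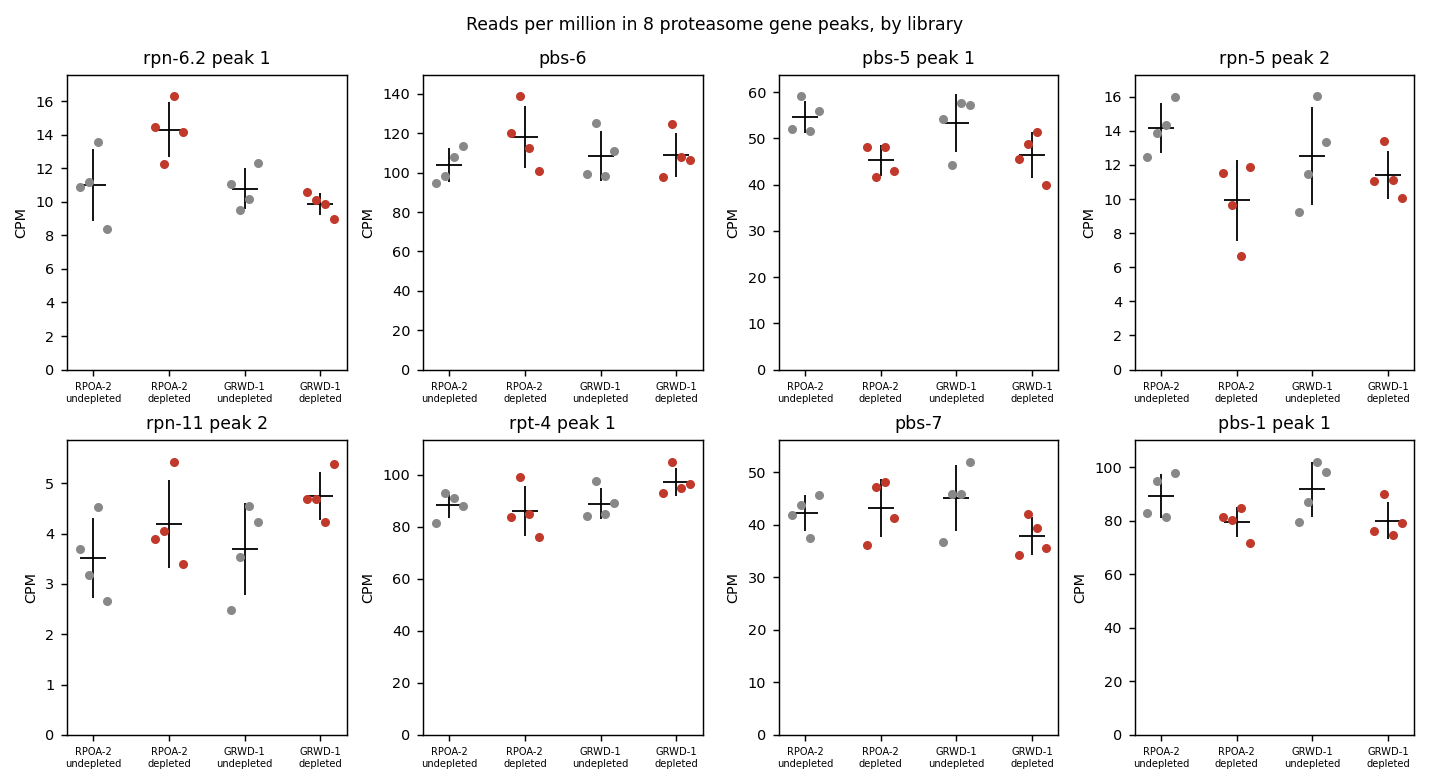
CPM in every library (points) with mean and SD (bars, n = 4) for the 8 peaks with the smallest unadjusted p in each direction and comparison, undepleted in grey and depleted in red. The y axes start at 0, and only pbs-5 peak 1 and rpn-5 peak 2 have depleted libraries all below the undepleted ones, both in the RPOA-2 pair.

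For the peaks named in the RPOA-2 comparison, the GRWD-1 libraries gave these values. In GRWD-1 larvae pbs-5 peak 1 held 54.1, 44.3, 57.7 and 57.2 CPM undepleted and 45.4, 48.9, 51.5 and 39.9 CPM depleted (log2 fold change -0.16 ± 0.09 SE). The level in undepleted replicate 2 lay within the depleted range, and the other 3 undepleted libraries were above it. rpn-5 peak 2 held 9.25, 11.5, 16.0 and 13.3 CPM undepleted and 11.1, 13.4, 11.1 and 10.1 CPM depleted, with overlap. Conversely, pbs-1 peak 1 held 83.1, 95.04, 81.4 and 97.8 CPM in RPOA-2 undepleted and 81.6, 80.2, 84.8 and 71.8 CPM in RPOA-2 depleted larvae, a log2 fold change of -0.17 ± 0.09 SE. For rpn-6.2 peak 1 the GRWD-1 values were 11.05, 9.51, 10.2 and 12.3 CPM undepleted and 10.6, 10.1, 9.88 and 8.98 CPM depleted. For pbs-6 they were 99.3, 125.2, 98.3 and 110.8 CPM undepleted and 97.6, 124.6, 107.9 and 106.4 CPM depleted, and both of these peaks overlapped between the groups.

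When both depletion effects were averaged in the same fit, 2 single peaks came closest to the threshold without passing it. The mean log2 fold change was -0.21 ± 0.07 SE for pbs-5 peak 1 (edgeR, adjusted p = 0.0528) and -0.18 ± 0.06 SE for pbs-1 peak 1 (adjusted p = 0.0653). In this comparison 0 of 58 peaks passed, against 4.4% of all peaks, and DESeq2 also called 0. At an unadjusted p under 0.05 there were 6 (10.3%, against 16.4% of all peaks), all lower: pbs-1 peak 1, pbs-5 peak 1, rpn-5 peak 2, rpn-6.1 peak 2, rpn-7 peak 2 and rpt-2. The pbs-5 call depends on single libraries, as it passed when RPOA-2 depleted replicate 1 (adjusted p = 0.0338), GRWD-1 undepleted replicate 2 (0.0248) or GRWD-1 depleted replicate 2 (0.0232) was left out. The last omission also brought pbs-1 peak 1 past the threshold (adjusted p = 0.0261). In the other direction, without RPOA-2 depleted replicate 2 the mean effect was -0.13 for pbs-5 peak 1 (adjusted p = 0.759) and -0.12 for pbs-1 peak 1 (0.749), and with 3 factors it was -0.11 and -0.12. The averaged interval was narrower, and for 57 of the 58 peaks it lay within a 1.5-fold change. The other peak of pbs-5, pbs-5 peak 2, overlapped between the groups in both pairs. It held 57.9, 58.9, 56.4 and 62.0 CPM in RPOA-2 undepleted and 62.2, 66.5, 67.7 and 55.1 CPM in RPOA-2 depleted larvae. In GRWD-1 larvae it held 54.8, 66.4, 58.3 and 69.5 CPM undepleted and 56.5, 67.0, 58.1 and 56.8 CPM depleted.

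Differences between the subunit groups were not tested. At an unadjusted p under 0.05 (edgeR), GRWD-1 depletion gave 3 of 11 beta ring, 1 of 10 ATPase and 1 of 20 lid peaks, all lower. It gave 0 of 13 alpha ring and 0 of 4 other base peaks, against 10.8% of all peaks. RPOA-2 depletion gave 1 of 11 beta ring and 2 of 20 lid peaks and 0 in the other groups, against 12.3% of all peaks. The median log2 fold change after RPOA-2 depletion was -0.02 for the 13 alpha ring peaks, -0.04 for the 11 beta ring peaks, -0.06 for the 10 ATPase peaks, -0.06 for the 4 peaks of the other base subunits and ubiquitin receptors, and -0.01 for the 20 lid peaks. After GRWD-1 depletion the medians were -0.08, -0.09, -0.09, -0.17 and -0.08 in the same order. Below 0 after GRWD-1 depletion were 12 of 13 alpha ring peaks, 9 of 11 beta ring peaks, 7 of 10 ATPase peaks, 3 of 4 other base peaks and 15 of 20 lid peaks. None of these groups had a called peak in either comparison. Over both depletions, 27 of the 58 peaks were below 0 in each, 5 were above 0 in each and 26 had opposite signs.

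**Figure D5:**
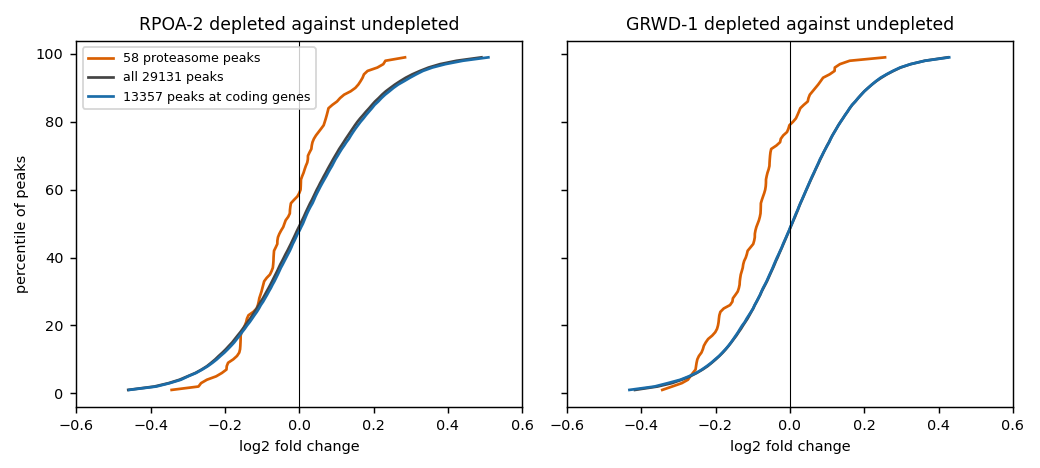
Distribution of log2 fold changes (x axis) by percentile (y axis) for the 58 proteasome peaks, all 29131 peaks and the 13357 peaks near protein-coding genes, in RPOA-2 (left) and GRWD-1 (right) depleted against undepleted larvae. The proteasome curve crosses 0 at the 58.6th percentile on the left and the 79.3rd on the right, and the curves show the 1st to the 99th percentile.

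Summed over the 58 peaks, the libraries differed by more within a group than the groups differed. The sum was 2123 ± 97.9 CPM in RPOA-2 undepleted and 2105 ± 80.6 CPM in RPOA-2 depleted larvae, and 2166 ± 109 CPM in GRWD-1 undepleted and 2065 ± 101 CPM in GRWD-1 depleted larvae (SD, n = 4). The 4 groups overlapped, with a range of 1981 to 2270 CPM over all libraries. The 1st replicate had the lowest sum in 3 of the 4 groups. In a whole-animal sample, a smaller share of cells with open chromatin and less opening per cell cannot be told apart.

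The depletion effects of RPOA-2 and GRWD-1 were compared directly in the same fit. The difference between both effects passed for 0 of 58 peaks (0.0103% of all peaks passed), with 0 of 58 also at an unadjusted p under 0.05, where 5.79% of all peaks stood. The smallest adjusted p was 0.863, at rpn-2 peak 2, and the interval of the difference lay within 1.5-fold for 37 of the 58 peaks. Set directly against each other, both depleted groups also gave 0 of 58 calls (0.13% of all peaks), with a smallest adjusted p of 0.357. Here 8 peaks had an unadjusted p under 0.05 (13.8%, against 7.07% of all peaks), and all 8 were higher in RPOA-2 depleted larvae. They were the peaks of pas-2, pas-3, pas-5, pbs-6 and pbs-7, rpt-5 peak 2 and both rpn-6.2 peaks, with log2 fold changes from 0.17 to 0.45. The undepleted strains differed at 0 of 58 peaks (0.00343% of all peaks passed), with 0 of 58 at an unadjusted p under 0.05 against 4.06%. In DESeq2 these comparisons called 0 of 58 peaks as well.

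Other genes of the ubiquitin and proteasome pathway were read in the same fit. Of 27 listed genes, 19 had a peak by the same rule, 37 peaks in all, none of them shared with a proteasome gene. The other 8 were ddi-1 and png-1, which process the SKN-1 form that acts on proteasome genes, and ubq-1, npl-4.1, npl-4.2, aip-1, dss-1 and chn-1. None of the 37 peaks passed in either depletion (edgeR, 0 higher and 0 lower), where 1.69% and 1.38% of all peaks passed. The median log2 fold change was 0.01 after RPOA-2 and -0.02 after GRWD-1 depletion. At an unadjusted p under 0.05 there were 3 after RPOA-2 depletion, all higher, and 3 after GRWD-1 depletion, 1 higher and 2 lower, where 12.3% and 10.8% of all peaks stood. The lowest adjusted p after RPOA-2 depletion was 0.137, at a peak of skr-1, a subunit gene of the ubiquitin ligases that TIR1 joins (log2 fold change 0.45 ± 0.16 SE). After GRWD-1 depletion, where TIR1 was expressed as well, the same peak had 0.09 ± 0.14 SE. The other skr-1 peaks had 0.16, -0.11 and -0.08 after RPOA-2 and -0.15, -0.10 and -0.06 after GRWD-1 depletion. The peaks of skn-1 itself had log2 fold changes of -0.12, -0.11 and -0.10 after RPOA-2 and -0.02, -0.03 and 0.02 after GRWD-1 depletion. Those of wdr-23, which encodes the factor that targets SKN-1 for degradation, had 0.04 and -0.03 after RPOA-2 and 0.01 and 0.09 after GRWD-1 depletion.

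Of the tissue markers, 1 of 18 peaks passed after RPOA-2 depletion and 0 after GRWD-1 depletion (edgeR), where 1.69% and 1.38% of all peaks passed. At an unadjusted p under 0.05 there were 3 and 1 of 18, against 12.3% and 10.8% of all peaks. The peak upstream of neuronal rgef-1 held 53.2 ± 5.56 CPM undepleted and 73.9 ± 10.1 CPM depleted (SD, n = 4) in the RPOA-2 pair (log2 fold change 0.38 ± 0.10 SE, edgeR, adjusted p = 0.0191). In the GRWD-1 pair it held 71.4 ± 11.8 CPM undepleted and 73.4 ± 20.3 CPM depleted (log2 fold change 0.03 ± 0.09 SE). The peaks of unc-119, the other neuronal marker, had log2 fold changes of 0.16, -0.03 and -0.09 after RPOA-2 depletion. After GRWD-1 depletion they had 0.23, 0.18 and 0.22, and none passed in either pair. Summed over the 18 marker peaks, libraries held 590.3 to 623 CPM in RPOA-2 undepleted, 622 to 706 CPM in RPOA-2 depleted, 593 to 682 CPM in GRWD-1 undepleted and 580.0 to 728 CPM in GRWD-1 depleted larvae. The part of tissue makeup in the values of the proteasome peaks was not tested.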

How the data were processed

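The assay was ATAC-seq, with 4 replicate libraries for each of 4 strains at the L1 stage. The deposited files hold unnormalized whole-number counts of reads per library in 29131 merged peaks. In the authors' pipeline, trimming used fastp and alignment used Bowtie2. Mitochondrial, unmapped and low-quality alignments were dropped, MACS2 was run on each library, and featureCounts 2.0.1 counted reads without duplicates over the merged regions. Per the file headers the reads of a pair were counted singly, so counts overstate the number of fragments. The MACS2 shift is given as a positive value, and its effect on peak positions was not tested.

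The count model was fitted with edgeR 4.0.16 in R 4.3.3 (TMM scaling, quasi-likelihood F-test). filterByExpr removed 0 peaks. Genotype (4 levels) was modelled together with 2 RUVg factors of unwanted variation, estimated on 13897 control peaks, which were those with adjusted p of 0.75 or more when DESeq2 1.42.0 compared the RPOA-2 groups with genotype as the only term. Calls required a Benjamini-Hochberg adjusted p under 0.05 over all peaks. Each standard error was computed back from the p-value and the log2 fold change through the normal distribution, and intervals extend 1.96 standard errors to each side. The fit was tested on simulated data in which changed peaks differed by 1.5-fold or more in either direction, so smaller changes were not covered. Libraries of 1 strain differed beyond counting error (chi-square per degree of freedom 1.87 to 11.8 over 24 pairs), so each counted as 1 sample.

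Genes, 5′ ends and exons came from Ensembl release 115. Peaks described in every library were those with the 2 smallest unadjusted p-values in each direction of both depletion comparisons and those of highest and lowest density among pas, pbs, rpt and rpn genes. The genes and lists were chosen with earlier results of these data known. DNA sequence was not used here.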

Additional observations from a re-analysis of the deposited data

How the results depend on the processing

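The count of proteasome peaks called was recomputed under 32 alternatives (scaling, test, filters, factors, control peaks, a block of the replicate number, 8 libraries alone, the peak rule, the threshold and leaving out each library). It stayed at 0 in each direction of every comparison except the mean of both depletions, for which, as for the difference between both effects, a fit of 8 libraries alone cannot be made. For the mean, 1 peak was called lower with a filter of at least 10 CPM (pbs-5 peak 1, adjusted p = 0.0461), 1 was called higher with 3 factors (rpn-3, log2 fold change 0.34, adjusted p = 0.0245), 2 were called lower at an adjusted p under 0.1, and leaving out single libraries gave 0 to 2 called lower. The cause of these changes was not tested. The median log2 fold change of the 58 peaks moved by less than the spread between replicates (0.08) in all comparisons and alternatives. That is a wide limit, since the medians themselves were -0.04 for RPOA-2 and -0.09 for GRWD-1. The median ran from -0.06 to 0.0024 for RPOA-2 and from -0.13 to -0.02 for GRWD-1. Its sign also changed between both depleted groups (main 0.05, lowest -0.01) and between both undepleted groups (main 0.01, lowest -0.03).

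The 14 peaks described by library had no call to lose in either depletion, but 61 of their alternative values changed sign. The cause was not tested. For the GRWD-1 effect: pbs-6 gave 0.0082 with 0 factors, 0.045 with 3 factors, 0.010 with the replicate block in place of the factors and 0.0016 with the 8 libraries alone. With 3 factors, GRWD-1 values were 0.025 for pbs-5 peak 1, 0.20 for rpn-5 peak 2, 0.0051 for pas-5 and 0.13 for pbs-1 peak 2. With the 8 libraries alone they were 0.12 for rpn-6.2 peak 1, 0.074 for pbs-5 peak 1 and 0.17 for rpn-5 peak 2. With all peaks as control peaks, rpn-5 peak 2 gave 0.053 and pbs-1 peak 2 gave 0.15, and with control peaks from the GRWD-1 contrast the latter gave 0.024. For RPOA-2, 1 factor gave -0.0085 for pbs-7 and -0.011 for rpn-8 peak 2. Control peaks from the GRWD-1 contrast and all peaks as control peaks gave 0.11 and 0.22 for pbs-1 peak 2 and 0.15 and 0.31 for pas-4 peak 2, and the second also gave 0.026 for rpt-2. pbs-1 peak 2 gave 0.0051 with 3 factors and 0.026 with the replicate block beside the factors, where pas-5 gave -0.0032. Leaving out single libraries gave ranges for RPOA-2 of -0.018 to 0.079 for rpn-8 peak 2, -0.029 to 0.13 for pas-5, -0.14 to 0.10 for pbs-1 peak 2, -0.038 to 0.075 for pbs-7 and -0.42 to 0.12 for pas-4 peak 2. For GRWD-1 the ranges were -0.023 to 0.032 for pbs-6, -0.22 to 0.14 for pbs-1 peak 2 and -0.23 to 0.083 for rpn-5 peak 2.

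The methods state that 1 replicate of every strain was processed at the same time, in 4 batches, but no source used here says that the replicate number marks the batch. Same-numbered libraries of different strains correlated at -0.02 to 0.46 in their deviations from the group means, 14 of 24 pairs over 0.1. Differently numbered libraries of different strains correlated at -0.40 to 0.12. By mean correlation with the libraries of the other strains that bear each number, 12 of 16 libraries correlated best with their own number. With a replicate block in place of the factors, 0 of 58 peaks were called in any comparison, and the smallest adjusted p of the mean depletion effect was 0.0647. With the block and the factors it was 0.111. The overlaps between groups given above take no account of the replicate number. Among the peaks described by library, each GRWD-1 depleted library was above the undepleted one of its number at rpt-4 peak 1. Each was below at pas-4 peak 2, pas-5, pbs-7 and rpt-2. In the RPOA-2 pair each was above at rpn-6.2 peak 1 and rpn-11 peak 2, and below at pbs-5 peak 1 and rpn-5 peak 2. Elsewhere directions were mixed, and shares over all peaks were not counted. At peaks of few reads, depth limits what can be seen: 14 of 58 had under 20 reads in some library.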
